A study of Mus musculus with 39 samples.

Results

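10 genes of the response to bacterial endotoxin were named for a description of mouse liver after aggressor exposure, namely Lbp, Cd14, Tlr4, Nfkb1, Nfkbia, Nfkbiz, Tnfaip3, Icam1, Cxcl1 and Ccl2. A probe was taken as a member if it was no control and its RefSeq accession belonged to 1 of these 10 genes. This gave 9 probes of 9 genes, among 25903 RefSeq probes of 17016 genes on the array, and no probe was matched for Nfkb1, which encodes the p50 precursor. The rule that picks the probes uses no measured value. The probes of Tlr4 and Ccl2 each lay on 10 spots per array and the other 7 on 1 spot each.

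Liver RNA came from 39 male C57BL/6J mice that were 5 to 6 weeks of age at the start, with 1 two-colour array per mouse. AggE mice were placed in a mesh cage inside the home cage of a trained SJL aggressor for 6 hrs daily, with 3 short physical contacts per session, on 5 or 10 consecutive days. Ctrl mice went through the same cage-in-cage sessions and food deprivation without an aggressor, and all mice were housed singly. Before death, each mouse also met a reminder of the aggressor across a partition. After the 5-day stressor, livers were taken at 24 hrs (4 Ctrl, 5 AggE) and at 1.5 wks (4 Ctrl, 5 AggE), and after the 10-day stressor at 24 hrs (4 Ctrl, 5 AggE) and at 4 wks (6 Ctrl, 6 AggE), written below as 24 hrs post-5-day and so on. The labels of some mice disagree on the regimen. A 1-day stressor also appears for AggE at 24 hrs post-5-day. At 1.5 wks the titles of all 5 AggE mice begin with T10 and that of Ctrl mouse 4 with HC10. The other Ctrl titles at that time begin with C5, so by title the regimen there differs between AggE and most Ctrl mice. For all these mice the fuller description set the group. Each value is the log2 ratio of the Cy-5 signal (liver) to the Cy-3 signal (a universal mouse reference RNA), so it compares mice for 1 gene and does not rank genes by abundance.

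Endotoxin, the lipopolysaccharide of Gram-negative bacteria, is carried in plasma by the LPS-binding protein Lbp, a hepatocyte product, handed to the co-receptor Cd14 and recognized by Tlr4 with its partner Ly96. The receptor signals through adaptors and kinases that release NF-kB from its I-kB inhibitors, and NF-kB then switches on chemokines, adhesion molecules and its own inhibitors. In liver, the Kupffer cells lining the sinusoids meet endotoxin arriving from the gut in portal blood. The comparisons below ask whether transcripts of these sensors, inhibitors and targets differed between AggE and Ctrl livers at each time.

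NF-kB acts through a short site in the promoters of its targets, and the promoters of the members that carry its kB consensus are shown because these members stand for the transcriptional output of the pathway. RefSeq promoter windows of build GRCm38.p6 are described for 4 members only (Nfkbia, Tnfaip3, Icam1 and Cxcl1). Cd14 was left out of this description, so the counts do not cover every member. Of the 4, 3 (Nfkbia, Tnfaip3 and Cxcl1) held the 10-base kB consensus on either strand within the 250 bases before the gene start. Icam1 and a second Tnfaip3 window held no match to these letters. Of all 32851 windows of this length, 1281 (3.9%) held a match. Each sequence is printed 5′ to 3′ on the strand of the gene, with every match in capitals, and in Cxcl1 the capitals are 2 overlapping matches on opposite strands. The Nfkbia window is chr12:55492648-55492897 on the minus strand, the Tnfaip3 window chr10:19015411-19015660 on the minus strand and the Cxcl1 window chr5:90890995-90891244 on the plus strand.
Nfkbia: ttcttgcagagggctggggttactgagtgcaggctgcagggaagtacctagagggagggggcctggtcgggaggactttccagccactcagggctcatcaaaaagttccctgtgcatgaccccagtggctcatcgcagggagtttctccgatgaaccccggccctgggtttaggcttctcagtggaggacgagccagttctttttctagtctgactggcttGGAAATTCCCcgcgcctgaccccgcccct
Tnfaip3: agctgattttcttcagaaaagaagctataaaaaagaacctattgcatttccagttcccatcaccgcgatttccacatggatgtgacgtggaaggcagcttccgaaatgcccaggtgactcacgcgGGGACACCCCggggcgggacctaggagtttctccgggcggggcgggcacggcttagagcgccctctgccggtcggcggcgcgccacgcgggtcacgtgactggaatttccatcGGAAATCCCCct
Cxcl1: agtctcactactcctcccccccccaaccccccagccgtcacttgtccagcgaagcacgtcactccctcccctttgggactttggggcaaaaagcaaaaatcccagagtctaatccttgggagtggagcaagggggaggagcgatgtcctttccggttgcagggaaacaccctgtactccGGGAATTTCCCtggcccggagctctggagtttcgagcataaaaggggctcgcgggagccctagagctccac
The match began 29 bases before the gene start in Nfkbia, 125 and 12 bases before it in Tnfaip3, and 71 and 70 bases before it in Cxcl1. A match is a description of letters and not a measured binding site.

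Signals were low, and they differed between arrays. A probe was called well above background in Cy-5 by the mark that the scanner software gives its spots. Below background means here that this mark was missing, and the spot could still be brighter than its local background. The share of RefSeq probes so marked ranged from 20% to 79.6% over the 39 arrays, and at 24 hrs post-5-day it was 21.1% to 37% in AggE and 33.3% to 40.2% in Ctrl. The arrays lay on 11 slides and were scanned on 2 days, 25 on the first and 14 on the second. At 24 hrs after either regimen no slide held both groups, so slide and group cannot be told apart there, whereas 1 AggE and 3 Ctrl arrays shared a slide at 1.5 wks and again at 4 wks. All 12 arrays at 4 wks, and 1 array of each group at 1.5 wks, were scanned on the second day. The 5 hepatocyte markers on the array (Alb, Apoa1, Ttr, Tat, Hnf4a) were well above background on all 39 arrays.

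The members differed widely in how often they were detected. Nfkbia was well above background on all 39 arrays, Lbp on 36, Ccl2 on 27, Cxcl1 on 25, Cd14 on 22, Nfkbiz on 16 and Tnfaip3 on 9. Tlr4 and Icam1 were well above background on 1 array each, the same Ctrl array at 4 wks. For a member below background on every array of both groups no fold is given, and its log2 ratios are listed as read. Over the 39 arrays the net Cy-5 intensity (spot minus local background, not normalized) had a median of 311.5 for Nfkbia, 52 for Lbp and 40.7 for Ccl2, against 4.3 for Tlr4 and 4 for Icam1. The 10 spots of Tlr4 were well above background at 20 of 390 spots (5.13%), those of Ccl2 at 265 of 390 (67.9%). The SD among the 10 Ccl2 spots of an array (median 0.21) was near the SD among mice of a group (0.23), whereas for Tlr4 it was 0.09 against 0.18.

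**Figure D1:**
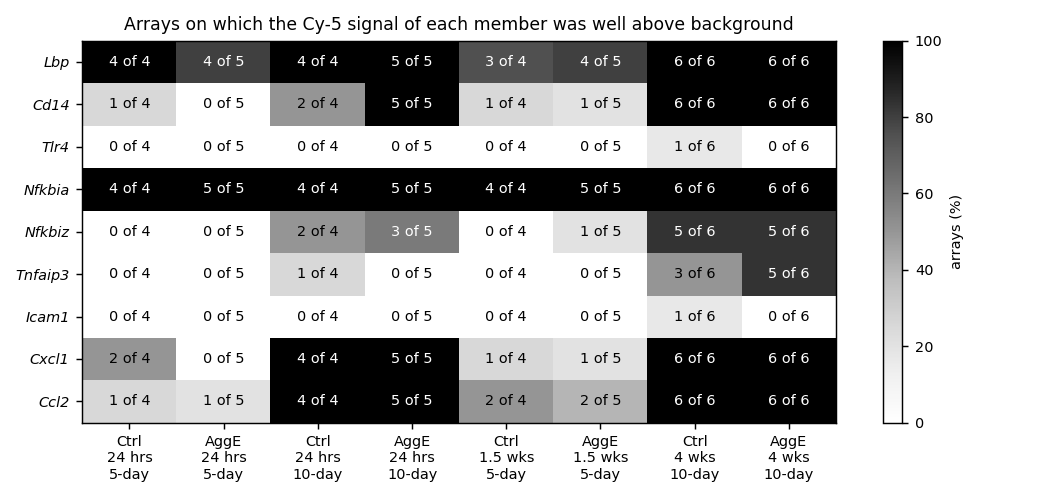
Number of arrays in each group on which the Cy-5 signal of a member was well above background, with the shade giving the same as a percentage of the arrays of the group. Nfkbia is dark in all 8 groups, Tlr4 and Icam1 are blank but for 1 Ctrl array at 4 wks, and the chemokines Cxcl1 and Ccl2 are dark only in the groups of the 10-day regimen.

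The plot of log2 ratios by mouse shows every value behind the tests. For Lbp the group means ran from 0.08 ± 0.09 (SD, n = 4) in Ctrl at 1.5 wks and 0.11 ± 0.15 (n = 5) in AggE at 1.5 wks, through 0.32 ± 0.23 (n = 6) in Ctrl at 4 wks, 0.74 ± 0.35 (n = 4) in Ctrl and 0.80 ± 0.41 (n = 5) in AggE at 24 hrs post-5-day, 0.76 ± 0.42 (n = 6) in AggE at 4 wks and 0.98 ± 0.03 (n = 4) in Ctrl, to 1.22 ± 0.28 (n = 5) in AggE at 24 hrs post-10-day. Within a time, the step of Lbp between AggE and Ctrl was smaller than the larger of the 2 SDs at 24 hrs and 1.5 wks. For Nfkbia both the lowest group mean (24 hrs post-10-day, -1.42 ± 0.03, n = 4) and the highest (1.5 wks, -0.22 ± 0.15, n = 4) belonged to Ctrl groups. Ctrl at 1.5 wks was also the highest group for Cd14, Tlr4, Tnfaip3 and Ccl2. Time, slide and day of scan cannot be told apart in such steps, so the tests below compare AggE with Ctrl within a time.

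**Figure D2:**
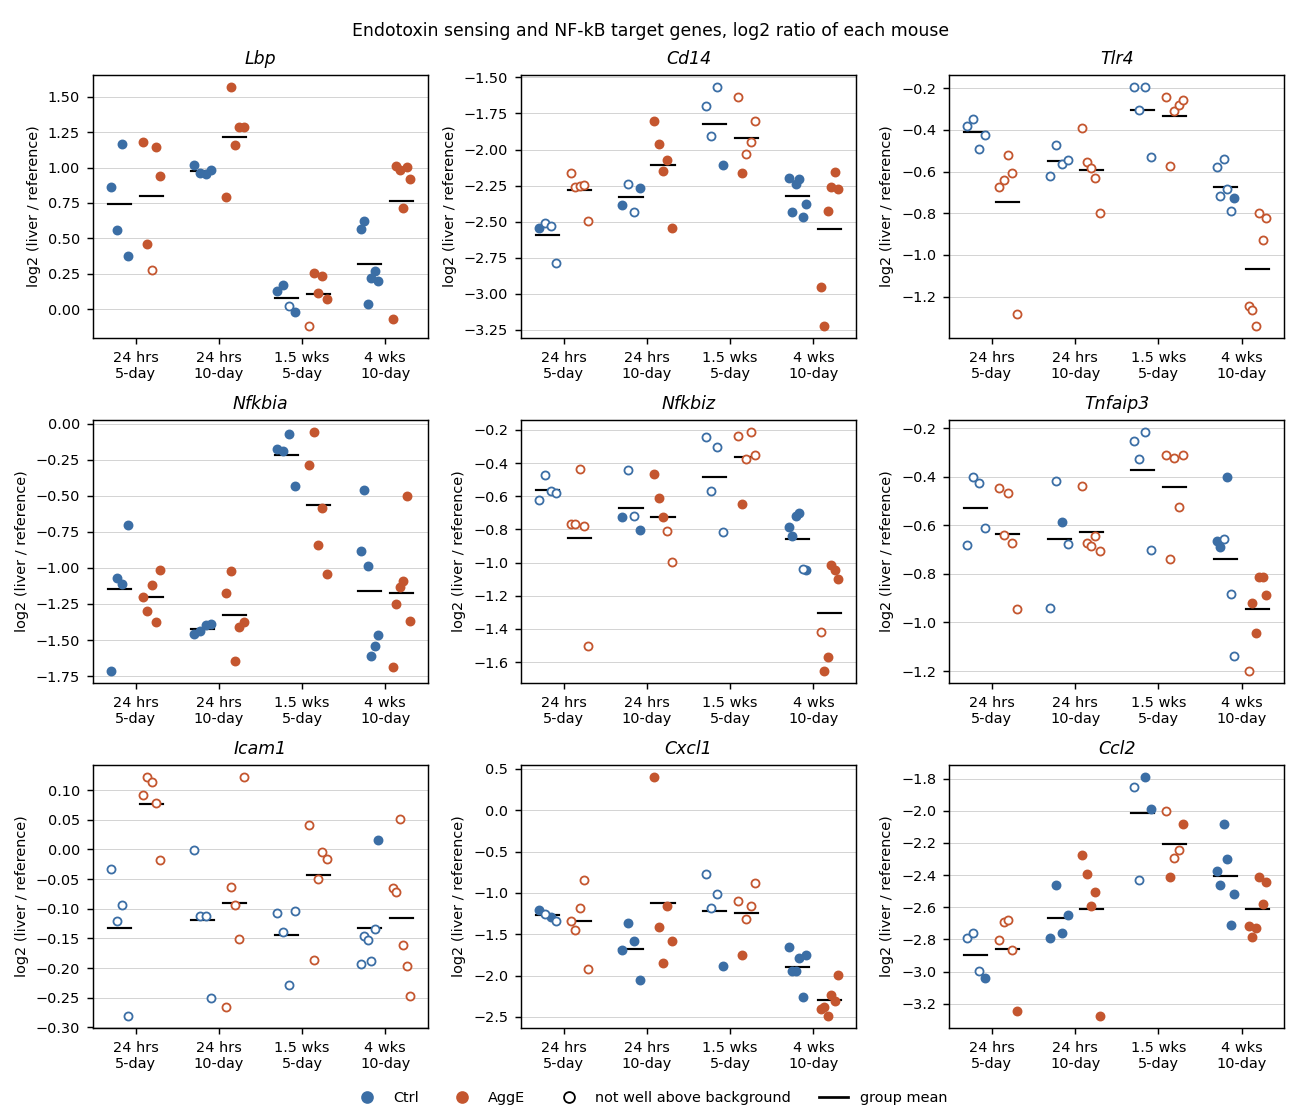
Log2 ratio of liver to reference (vertical axis) for each of the 9 members in each mouse, in Ctrl (blue) and AggE (orange) at the 4 times (horizontal axis), with the group mean as a line and open points where the probe was not well above background. AggE and Ctrl overlap in most panels, 1 AggE mouse at 24 hrs post-10-day stands at 0.41 for Cxcl1, and 5 of 6 AggE mice at 4 wks lie above every Ctrl mouse for Lbp.

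No sensor, inhibitor or target among the members at 24 hrs post-5-day passed the test across all probes. With limma, 0 of 9 members had an adjusted p of 0.05 or less, where 3.12% of all RefSeq probes did. At an unadjusted p of 0.05 or less, 1 member was higher in AggE (Icam1, where 8.15% of all probes were higher) and 1 was lower (Tlr4, where 9.19% were lower). The groups did not overlap for 3 members (Cd14, Tlr4 and Icam1) against 7.6% of all probes, and all 3 were near or below background. The median over the 9 members was -0.05, with 4 higher in AggE, and over all probes it was 0.0032.

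Lbp, the plasma carrier of endotoxin, was at 1.18, 0.46, 0.28, 1.14 and 0.94 in the 5 AggE mice and at 0.86, 0.56, 1.17 and 0.37 in the 4 Ctrl mice. These ranges overlapped throughout, and the difference of 0.06 ± 0.19 (SE) had a 95% interval of -0.32 to 0.44 (adjusted p = 0.93). Cd14, the co-receptor on macrophages and monocytes, was at -2.16, -2.26, -2.25, -2.25 and -2.50 in AggE and at -2.55, -2.51, -2.53 and -2.79 in Ctrl. All 5 AggE mice lay above the 4 Ctrl mice, yet the probe was well above background in 0 AggE and 1 Ctrl array, the adjusted p was 0.31 (limma), and no fold is given. Tlr4, the receptor, was at -0.68, -0.64, -0.52, -0.61 and -1.28 in AggE and at -0.38, -0.35, -0.49 and -0.43 in Ctrl, with all AggE mice lower (adjusted p = 0.11, limma). It was below background on all 9 arrays, its net Cy-5 intensity was 4.2 to 7.2 in AggE and 3.1 to 4.1 in Ctrl, the opposite order of the log2 ratios, and the direction turned with the processed signals of the scanner software.

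Among the inhibitors, Nfkbia, the I-kBα protein that holds NF-kB in the cytoplasm, was at -1.2, -1.3, -1.12, -1.37 and -1.02 in AggE and at -1.72, -1.07, -1.11 and -0.70 in Ctrl. The AggE mice lay within the Ctrl range, with a difference of -0.05 ± 0.21 (95% interval -0.49 to 0.38, adjusted p = 0.947). Nfkbiz, a nuclear I-kB protein, and Tnfaip3, the deubiquitinase A20 that shuts the pathway off, were below background in all 9 mice, with adjusted p of 0.333 and 0.756. Of the targets, Icam1, the adhesion molecule that holds leukocytes to endothelium, was at 0.09, 0.12, 0.11, 0.08 and -0.02 in AggE and at -0.03, -0.12, -0.09 and -0.28 in Ctrl. All 5 AggE mice were higher (adjusted p = 0.0765, limma), with net Cy-5 intensities from 6 upward in AggE and 0 to 4.5 in Ctrl. The probe was not well above background on any of the 9 arrays, so no fold is given, and with the processed signals the sign turned. The neutrophil chemokine Cxcl1 had a median of -1.34 (range -1.92 to -0.84) in AggE and -1.27 (-1.34 to -1.20) in Ctrl, and the monocyte chemokine Ccl2 a median of -2.80 (-3.25 to -2.68) and -2.90 (-3.04 to -2.76), with adjusted p of 0.943 and 0.942. AggE mouse 5, the 1 AggE array of this time on another slide, had the lowest AggE value for 7 of the 9 members.

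Bulk liver RNA cannot tell fewer cells of a type from less RNA per cell. Of the 4 monocyte markers on the array, Ccr2 had an adjusted p of 0.0423 but was below background in both groups, so its value cannot be read as a change in level, and F13a1 had an adjusted p of 0.201. The mean log2 ratio over the list was -0.14 to 0.23 in AggE and -0.23 to -0.10 in Ctrl. Of the 10 Kupffer cell markers, Marco alone had an unadjusted p of 0.05 or less. Of the 8 neutrophil markers, 7 were below background in both groups. The part of these cells in the values of Cd14 and Icam1 was not tested.

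The members at 24 hrs post-10-day again did not pass the test, and the value farthest from the rest came from a single mouse. With limma, 0 of 9 members had an adjusted p of 0.05 or less (0.0734% of all probes). At an unadjusted p of 0.05 or less, Cxcl1 was higher in AggE (1.53% of all probes were higher) and 0 members were lower (1.29% of all probes). The groups overlapped for all 9 members, against 1.71% of all probes without overlap. The median over members was 0.06, with 7 of 9 higher in AggE, and over all probes it was -0.0038.

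Cxcl1 was at 0.41, -1.41, -1.85, -1.15 and -1.58 in the 5 AggE mice and at -1.69, -1.36, -1.59 and -2.05 in the 4 Ctrl mice. AggE mouse 1 stood apart from every other mouse, with a net Cy-5 intensity of 181.5 where the other AggE mice had 17 to 79 and Ctrl mice 13 to 53.5, while the other 4 AggE mice overlapped the Ctrl range. The difference over all mice was 0.56 ± 0.27 (1.47-fold, 95% interval 0.0033 to 1.11, adjusted p = 1), and 0.18 once AggE mouse 1 was left out (adjusted p = 1). The same mouse was the highest of the 5 AggE mice for 6 of the 9 members (Cd14, Tlr4, Nfkbiz, Tnfaip3, Cxcl1 and Ccl2) and the lowest for Lbp and Icam1.

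Lbp was at 0.79, 1.57, 1.16, 1.28 and 1.29 in AggE and at 1.02, 0.96, 0.95 and 0.98 in Ctrl. Of the AggE mice, 4 were above all Ctrl mice and AggE mouse 1 was below them, with a difference of 0.24 ± 0.19 (1.18-fold, 95% interval -0.14 to 0.62, adjusted p = 1). Cd14 was at -1.81, -1.96, -2.15, -2.08 and -2.54 in AggE and at -2.39, -2.24, -2.44 and -2.27 in Ctrl, again 4 AggE mice above and 1 below (0.22 ± 0.16, 95% interval -0.10 to 0.54, adjusted p = 1). The difference was above 0 for both genes under the other settings run, but its size was not stable, at 0.06 to 0.40 for Lbp (0.15 without AggE mouse 2) and 0.15 to 1.1 for Cd14 (0.15 without AggE mouse 1). The inhibitors differed little, Nfkbia by 0.09 ± 0.21 and Nfkbiz by -0.05 ± 0.15 (adjusted p = 1 for both), and Ccl2 by 0.06 ± 0.15 (95% interval -0.25 to 0.36, adjusted p = 1).

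Kupffer cell markers had differences of the same sign as Lbp and Cd14 at this time. All 10 were above 0, 3 of them at an unadjusted p of 0.05 or less (Marco, a scavenger receptor, by 1.31 ± 0.43, Csf1r by 0.35 ± 0.11 and Vsig4 by 0.36 ± 0.17), and 0 at an adjusted p of 0.05 or less. The mean log2 ratio over the list was 1.74 to 2.09 in AggE and 1.14 to 1.79 in Ctrl, and 3 of the 10 markers were well above background on all 39 arrays. Without normalization between arrays, 6 of 10 were higher, with a median of 0.01 in place of 0.36. The part of these cells in the values of Cd14 was not tested.

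No member passed the test at 1.5 wks post-5-day. With limma, 0 of 9 members had an adjusted p of 0.05 or less (0% of all probes), while by unadjusted p 0 members were higher (1.26% of all probes) and 0 lower (1.18%). The groups overlapped for all 9 members (0.961% of all probes did not overlap). The median over members was -0.03, with 3 of 9 higher in AggE, and over all probes it was -0.01.

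The widest step at 1.5 wks was in Nfkbia, at -0.29, -0.05, -0.84, -0.58 and -1.04 in AggE and at -0.18, -0.19, -0.07 and -0.43 in Ctrl. Of the AggE mice, 3 lay below all Ctrl mice, and the difference was -0.34 ± 0.21 (1.27-fold lower, 95% interval -0.78 to 0.09, adjusted p = 1). It was -0.54 over the arrays scanned on the first day and -0.90 within the slide that both groups shared, where 1 AggE mouse stands against 3 Ctrl mice, and leaving out 1 mouse gave -0.47 to -0.22, the latter without AggE mouse 5. Lbp differed by 0.03 ± 0.19 and Ccl2 by -0.19 ± 0.15, both with an adjusted p of 1. Leaving out 1 mouse gave -0.0023 to 0.0922 for Lbp and -0.33 to -0.11 for Ccl2. The 2 arrays of this time that were scanned on the second day, AggE mouse 2 and Ctrl mouse 4, each had the lowest value of their group for 7 of the 9 members.

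At 4 wks post-10-day Tlr4 was the 1 member that passed the test, at a signal near background and with a call that did not hold with the slide as a random block, and the endotoxin carrier Lbp was above every Ctrl mouse in 5 of 6 AggE mice without passing it. The differences of Cd14, Nfkbiz, Tnfaip3, Cxcl1 and Ccl2 were below 0 (-0.20 to -0.44), and without normalization between arrays all 5 of them, and Tlr4, were above 0. With limma, 1 of 9 members had an adjusted p of 0.05 or less (Tlr4, lower), where 3.51% of all probes did. At an unadjusted p of 0.05 or less, 1 member was higher (Lbp, where 9.45% of all probes were higher) and 2 were lower (Tlr4 and Nfkbiz, where 11.2% were lower). The groups did not overlap for Tlr4 alone (1.55% of all probes). The median over members was -0.21, with 2 of 9 higher in AggE, against 0.01 over all probes, and without normalization between arrays it was 0.11, with 8 of 9 higher.

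Lbp in the 6 AggE mice had a lowest value of -0.07, a median of 0.95 and a highest value of 1.01, and in the 6 Ctrl mice 0.04, 0.24 and 0.62. The other 5 AggE mice, at 0.72 to 1.01, lay above every Ctrl mouse, and AggE mouse 1 lay below every one. Net Cy-5 intensity was 106.5 to 236 in those 5 AggE mice, again above the 21 to 87 of Ctrl, whereas the 51 of AggE mouse 1 lay within the Ctrl range. The difference was 0.44 ± 0.16 (1.36-fold, 95% interval 0.11 to 0.77, adjusted p = 0.111), and leaving AggE mouse 1 out gave 0.61 with an adjusted p of 0.00749. AggE mouse 1 was the only AggE mouse on a slide with Ctrl mice: within that slide the difference was -0.30, and with the slide as a fixed block it was -0.19 (adjusted p = 0.766). The hepatocyte markers, from the cells that make Lbp, had differences below 0 for 5 of 5 genes with a median of -0.37, 1 of them (Apoa1) at an unadjusted p of 0.05 or less, and a mean log2 ratio of 4.22 to 5.17 in AggE and 4.78 to 5.37 in Ctrl, although with the Cy-5 channel alone 4 of 5 were above 0. Their part in the values of Lbp was not tested.

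Tlr4 had a lowest value of -1.34, a median of -1.08 and a highest value of -0.80 in AggE and -0.79, -0.70 and -0.54 in Ctrl. All 6 AggE mice lay below all 6 Ctrl mice, the nearest pair at -0.80 and -0.79, and the adjusted p was 0.0286 (limma). The probe was well above background on 0 of 6 AggE and 1 of 6 Ctrl arrays, the Ctrl array being that of mouse 6, and no fold is given. The call was lost with the slide as a random block (adjusted p = 0.103), with only the groups compared (adjusted p = 0.102), and on leaving out any 1 of 5 of the 12 mice (AggE mouse 2 or 3, Ctrl mouse 1, 3 or 4; adjusted p = 0.0505 to 0.0999). Net Cy-5 intensities were 5.05 to 15.7 in AggE, 44.6 in Ctrl mouse 6 and 3.95 to 13.9 in the other Ctrl mice, and overlapped, the adjusted p in the Cy-5 channel alone was 0.842, and without normalization between arrays the sign turned (adjusted p = 0.806).

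Nfkbiz had a lowest value of -1.66, a median of -1.26 and a highest value of -1.02 in AggE and -1.04, -0.82 and -0.70 in Ctrl. Every AggE mouse was below the Ctrl median and the groups overlapped at their edges, with a difference of -0.44 ± 0.13 (1.36-fold lower, adjusted p = 0.0523). It passed the test under 7 of 28 other settings (lowest adjusted p 0.0241, with array weights), 4 of them leaving out 1 mouse, and without normalization between arrays it was 0.11 in the other direction (adjusted p = 0.721). Tnfaip3 differed by -0.21 ± 0.11 (adjusted p = 0.27) and Nfkbia by -0.01 ± 0.18 (95% interval -0.39 to 0.36, adjusted p = 0.979), and Nfkbia, the inhibitor detected most often, had the smallest step of the 3.

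Cxcl1 had a lowest value of -2.49, a median of -2.34 and a highest value of -1.99 in AggE and -2.25, -1.87 and -1.65 in Ctrl. All 6 AggE mice lay below the Ctrl median, with overlap, and the difference was -0.41 ± 0.23 (1.33-fold lower, adjusted p = 0.33), or 0.12 in the other direction without normalization between arrays. Net Cy-5 intensities of 26.5 to 48 in AggE fell inside the 15 to 87 of Ctrl. Cd14 ran from -3.22 to -2.15 in AggE and from -2.46 to -2.19 in Ctrl, with 2 AggE mice below all Ctrl mice (-0.23 ± 0.14, adjusted p = 0.345). Leaving out 1 mouse gave Cd14 -0.31 to -0.09, the latter without AggE mouse 2, and -0.15 without AggE mouse 1. Ccl2 differed by -0.20 ± 0.13 (95% interval -0.47 to 0.06, adjusted p = 0.392). Icam1, below background on all but 1 array, had overlapping ranges (adjusted p = 0.909). Of the Kupffer cell markers, 5 of 10 had differences above 0 (54% of all probes). Of the 10, 2 were below 0 at an unadjusted p of 0.05 or less (Clec4f and Cd5l), where 11.2% of all probes were lower. Over all 10 marker lists and the 4 times, the adjusted test was passed by Epcam of biliary epithelium at 4 wks (adjusted p = 0.0238), by Ccr2 and by Cela2a of pancreas at 24 hrs post-5-day (adjusted p = 0.0408, both below background in both groups), and by no marker of hepatocytes, Kupffer cells, neutrophils, sinusoidal endothelium, lymphocytes, stellate cells or erythroid cells.

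**Figure D3:**
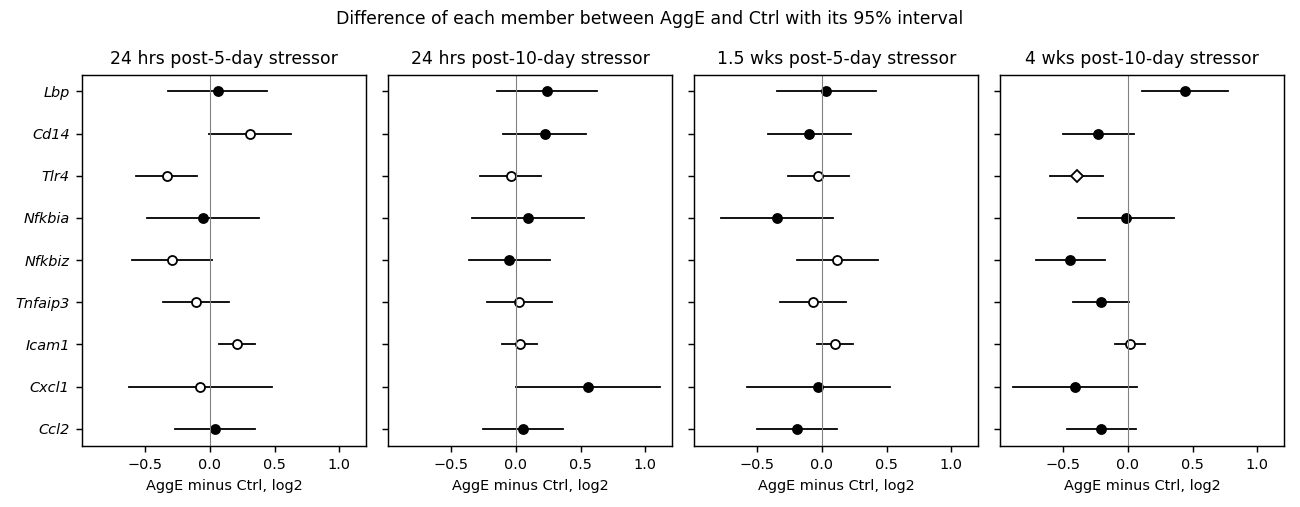
Difference between AggE and Ctrl in log2 ratio (horizontal axis) for each member (vertical axis) at the 4 times, with its 95% interval from limma, filled where both groups had at least 1 array well above background and a diamond where the adjusted p was 0.05 or less. Most intervals include 0, and those of Lbp (0.44), Tlr4 (hollow) and Nfkbiz (-0.44) at 4 wks and Cxcl1 (0.56) at 24 hrs post-10-day do not, while Tlr4 and Icam1 at 24 hrs post-5-day, also clear of 0, are hollow because they were below background on every array.

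**Figure D4:**
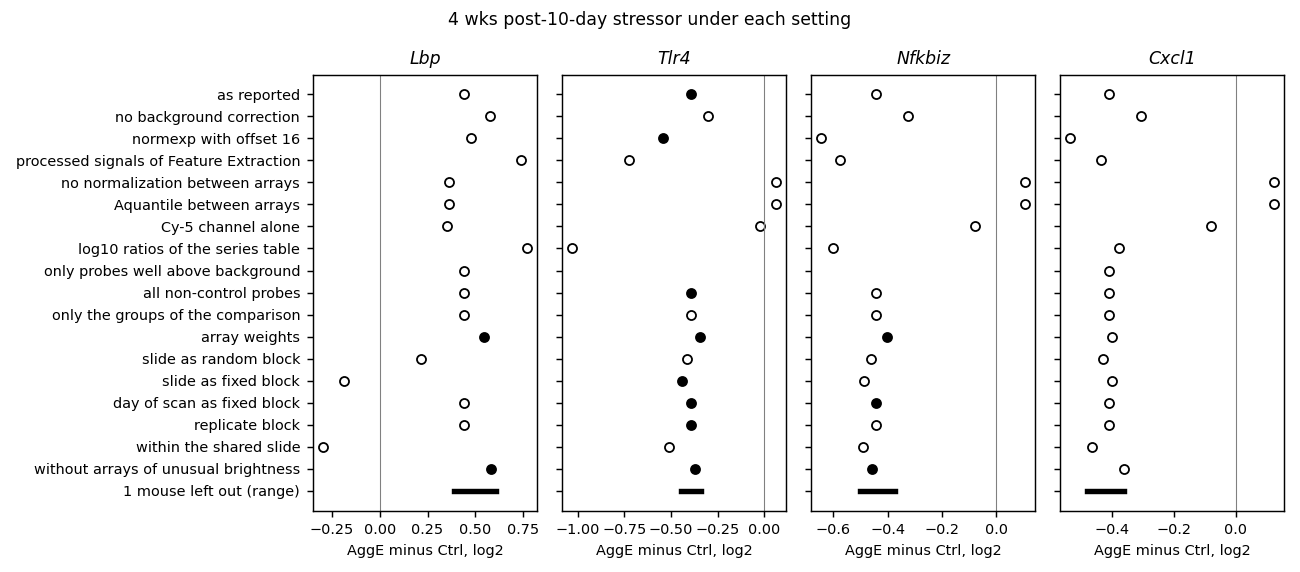
Difference between AggE and Ctrl at 4 wks post-10-day (horizontal axis, log2) for 4 members under each setting of the processing and the fit (vertical axis), filled where the adjusted p was 0.05 or less, with the lowest row giving the range when 1 mouse was left out. Lbp lies below 0 only with the slide as a fixed block and within the shared slide. Tlr4, Nfkbiz and Cxcl1 lie above 0 only without normalization between arrays and with Aquantile scaling, which left the ratios as they were.

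The plot of settings sets these 4 members side by side. For Lbp the value stayed between 0.22 and 0.77 except with the slide as a fixed block and within the shared slide. For Tlr4, Nfkbiz and Cxcl1 the sign turned without normalization between arrays and with Aquantile scaling, which left the ratios as they were. The sign held in the slide settings. It also held with the ratios of the series table, which were not scaled between arrays here either. The cause was not tested.

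Whether the change of a member itself differed between times or regimens was tested as a difference of the AggE minus Ctrl changes. Between the 5-day and 10-day regimens at 24 hrs, 0 of 9 members had an adjusted p of 0.05 or less (0.027% of all probes), and 0 had an unadjusted p of 0.05 or less (6.7%). Between 24 hrs and 1.5 wks after the 5-day regimen the counts were again 0 (0.0695% of all probes) and 0 (7.7%). For the 10-day regimen, between 24 hrs and 4 wks, they were 0 (0.0502%) and 3 (8.81%), namely Cxcl1, Cd14 and Tlr4. The change of Cxcl1 was 0.97 ± 0.36 higher at 24 hrs than at 4 wks (adjusted p = 0.468), and leaving out AggE mouse 1 at 24 hrs gave 0.59 (adjusted p = 0.694). For Cd14 it was 0.45 ± 0.21 higher (adjusted p = 0.537), and for Tlr4, below background on nearly all arrays, the adjusted p was 0.521. The count of 3 was 0 with slides as random blocks or when arrays were not normalized to each other, and 5 with array weights, and 1 to 5 on leaving out 1 mouse, when Cxcl1 kept an unadjusted p of 0.05 or less in 21 of 21 fits, Tlr4 in 16 and Cd14 in 13. Day of scan and time cannot be told apart in this comparison.

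The members belong to a wider pathway, of which 74 further genes were listed and 71 had a probe. At 24 hrs post-5-day 33 of the 71 were below background on every array of both groups, so their values measure no change in level. At this time 8 of 71 were higher (11.3%) and 5 lower (7.04%) at an unadjusted p of 0.05 or less, where 8.15% and 9.19% of all probes were. Of these, 1 passed the adjusted test (3.12% of all probes), Birc3, an inhibitor-of-apoptosis protein that ubiquitinates signalling partners and is itself an NF-kB target, which fell by 0.27 ± 0.08 (adjusted p = 0.0487). Scarb1, the HDL receptor that also binds endotoxin, differed by 0.42 ± 0.18, and Tab1, a partner of the kinase TAK1, by 0.39 ± 0.16, with adjusted p of 0.226 and 0.204. By unadjusted p, 0 of 71 were at 0.05 or less at 24 hrs post-10-day (1.53% of all probes were higher and 1.29% lower) and 1 at 1.5 wks (1.26% and 1.18%), Il1a, below background in both groups.

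At 4 wks 6 of 71 pathway genes were higher (8.45%) and 15 lower (21.1%) at an unadjusted p of 0.05 or less, where 9.45% and 11.2% of all probes were, and 1 passed the adjusted test, as 3.51% of all probes did. This was Selp, the endothelial adhesion molecule P-selectin, which rose by 0.17 ± 0.04 (adjusted p = 0.0329). The lower genes were spread over the receptors and co-receptors (3 of 10), the target cytokines and chemokines (4 of 14) and the target adhesion and effector genes (4 of 12), with the rest among kinases, subunits and feedback inhibitors. Without normalization between arrays 13 of 71 were lower and 8 higher, and with the Cy-5 channel alone 3 and 1. The share of all probes was counted for the fit as reported only. Whether these counts exceed those of all probes under the same settings was therefore not tested. Cyld, a deubiquitinase that restrains NF-kB, was at -0.48 ± 0.16 (adjusted p = 0.0776) and Tab2, an adaptor of TAK1, at -0.37 ± 0.15 (adjusted p = 0.152), while Zfp36, an RNA-binding protein that destabilizes cytokine transcripts, was at 0.34 ± 0.15 (adjusted p = 0.187) and the inhibitor Nfkbib at 0.25 ± 0.10 (adjusted p = 0.145).

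Nfkbia was the only member well above background on all arrays, so no correlation between members was computed. Over the 39 arrays and 3348 genes with signal on all of them, the log2 ratios most like those of Nfkbia were Nucks1 (Pearson r = 0.825), Wasf2 (0.82) and Pex11a (0.816). These points share arrays, slides and times, and r was 0.804, 0.797 and 0.815 among the 25 arrays of the first scan day and 0.863, 0.882 and 0.827 among the 14 of the second.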

How the data were processed

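Liver RNA (Cy-5) of 39 mice was hybridized with a reference RNA (Cy-3) on Whole Mouse Genome arrays, without a dye swap. The authors deposited unnormalized median intensities in both channels, for the spot and for the local background around it, as read by Agilent Feature Extraction 11.5.1.1 per the file headers, with its marks for outlier spots and spots well above background. The deposited processed intensities had been background-corrected and dye-normalized by the authors' software, and the deposited log10 ratios of the series table were made from them. Both served as alternatives.

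In R 4.3.3 with limma 3.58.1, median intensities were corrected with normexp (offset 50), outlier spots (0.295% to 1.46% per array) were set to missing, arrays were loess-normalized with controls at weight 0 and quantile-normalized, and spots of a probe were averaged. The offset compresses differences of dim probes. The median intensity of a spot was used because the mean was not among the columns read. A fit with a mean for each of 8 groups gave moderated tests, with Benjamini-Hochberg adjustment over 25903 RefSeq probes and a threshold of 0.05, and intervals are 95%. A gene was represented by its brightest probe, and symbols came from a RefSeq table (GRCm38.p6). A probe counted as well above background where at least 0.5 of its spots were so marked, and no fold is given where a group had no such array. Log2 values of such probes are given as read and measure no change in level. The number of arrays limits the precision. With 1 array per mouse, the p-values measure the spread between arrays of a group, in which mouse, array and slide are mixed. The fit as reported treats arrays as independent, while the consensus correlation within slides was 0.32.

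The members and lists were chosen with earlier results of these data known. Named genes are all members, pathway genes with an adjusted p of 0.05 or less in any comparison, up to 2 of the largest unadjusted rises and falls per comparison with signal on all arrays of a group, the 3 genes most like a member, and markers where a list is described. The lists were endotoxin receptors, adaptors and kinases, NF-kB subunits, feedback inhibitors, target cytokines, target effectors, and markers of 10 cell types. Alternatives were other background corrections, scalings, probe filters, fits, blocks and leaving out each mouse. The restriction to the first day of scan at 1.5 wks was added after seeing the data. The procedure was run on simulated data, with log2 changes of 1.5 in probes mostly well above background and no slide effect. That simulation does not cover small changes in dim probes.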

Additional observations from a re-analysis of the deposited data

Results flagged for a closer look

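In 72 tests (9 members in 8 groups), 7 had 1 mouse farther from the rest than Dixon's limit, and chance gives about 1 in 20 tests. At 4 wks AggE mouse 1 stood at -0.07 for Lbp, where the other 5 lay between 0.72 and 1.01. At 24 hrs post-5-day Ctrl mouse 4 stood at -2.79 for Cd14 (others -2.55 to -2.51), AggE mouse 5 at -2.50 for Cd14 (others -2.26 to -2.16) and the same AggE mouse 5 at -1.28 for Tlr4 (others -0.68 to -0.52). At 1.5 wks AggE mouse 2 stood at -0.57 for Tlr4 (others -0.31 to -0.24). The AggE mouse with the high Cxcl1, mouse 1 at 24 hrs post-10-day, stood at -0.44 for Tnfaip3 (others -0.70 to -0.64). At 4 wks Ctrl mouse 6, whose array had the largest share of bright probes (79.6%), stood at 0.02 for Icam1 (others -0.19 to -0.13). The causes were not tested.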

How the results depend on the processing

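Of 902 values of single members under other settings, 16 gained a call, 11 lost one with the sign kept (all of Tlr4 at 4 wks) and 127 had the opposite sign to the value reported (29 of 203 at 24 hrs post-5-day, 27 of 203 at 24 hrs post-10-day, 35 of 239 at 1.5 wks and 36 of 257 at 4 wks). No member was called at 1.5 wks, at 24 hrs after 10 days or in any of the 3 differences of changes under any setting run. At 24 hrs post-5-day the count of called members was 0, but 2 without background correction (Nfkbiz and Icam1) and with an offset of 16 (Tlr4 and Icam1), and 1 with the Cy-5 channel alone and with array weights (Icam1). At 4 wks it was 1, but 0 without background correction, with processed signals, without normalization between arrays, with Aquantile (which leaves the ratios as they were), with Cy-5 alone, with the series table, with bright probes only, with only the groups compared and with slides as random blocks, and it was 2 with the day of scan as a block and 3 with array weights and without the arrays of unusual brightness, Nfkbiz being called in all 3. The share of all probes called was counted for the fit as reported only, so a higher count of members here has no share beside it. Leaving out 1 mouse at a time gave 0 to 2 members at 4 wks and 0 to 0 in the other comparisons. The count at 4 wks fell to 0 without AggE mouse 2 or 3 or Ctrl mouse 1, 3 or 4, and rose to 2 without AggE mouse 1, 4, 5 or 6 or Ctrl mouse 2.

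Among differences with an unadjusted p of 0.05 or less as reported or under the other setting, the sign turned as follows. The difference of Tlr4 at 24 hrs post-5-day was 0.47 with processed signals and 0.70 with the series table, and that of Icam1 -0.54 and -0.14. At 4 wks, without normalization between arrays and with Aquantile alike, Cd14 was at 0.42, Tlr4 at 0.062 and Nfkbiz at 0.11, and Lbp was at -0.19 with the slide as a fixed block and at -0.30 within the shared slide, where no test was run. The other turns, most often of Cxcl1 at 1.5 wks (12 of 27 settings, leaving out a mouse included), Nfkbia at 4 wks (11 of 29) and Lbp at 1.5 wks (9 of 27), were in differences past no threshold and could be large, with Tnfaip3 at 24 hrs post-5-day between -0.30 and 0.70. Values of probes below background are given as read. The cause was not tested. Same-numbered mice of the 2 groups correlated at -0.448 to 0.502, with 5 of 18 pairs over 0.1. This spread, with slides left in, cannot tell whether they were paired, and the fit as reported treats them as unpaired. With a replicate block 1 member was called at 4 wks and 0 elsewhere. The mean over the probes of a gene was not run, as each member has 1 probe, and no fit with the slide as a fixed block was possible at 24 hrs. Signal near background limits Tlr4, Icam1, Tnfaip3 and Nfkbiz most.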
